A study of Mus musculus with 8 samples.

Results

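Neuropilins, plexins, semaphorins and vascular endothelial growth factors (VEGF) were examined in induced regulatory T cells (iTreg) sorted by surface neuropilin-1 (Nrp-1). The 10 genes, chosen by symbol as the neuropilins with their co-receptors and ligands, were Nrp1, Nrp2, Plxna1, Plxnb2, Plxnd1, Sema4a, Sema4d, Sema7a, Vegfa and Vegfb. All 10 were found among the 23361 gene symbols listed, and 9 passed the filter for testing, a mean of at least 1 FPKM (fragments scaled to transcript length and to the mapped fragments of the library). Plxna1, Plxnb2, Sema4a and Sema7a were higher in Nrp-1+ iTreg, as was Nrp1, for whose protein the sort selected, and Vegfa was lower, whereas Plxnd1, Sema4d and Vegfb did not pass the test. Among all 10467 genes tested, 40.9% passed it (20.9% higher, 20.0% lower), so a difference between these groups was common to many genes.

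Both groups were wild-type (WT) cells from B6 Foxp3-RFP reporter mice aged 7 to 8 weeks, in which Foxp3, the transcription factor that defines regulatory T cells, is reported by a red fluorescent protein. Naive CD4+ T cells (CD44low CD62Lhigh) of the spleen were activated with anti-CD3/CD28 beads in the presence of IL-2 at 50 U/ml and TGF-β at 2 ng/ml. Viable CD4+ Foxp3-RFP+ cells were then divided by surface Nrp-1, which gave 4 Nrp-1+ iTreg libraries and 4 Nrp-1- iTreg libraries, all labelled as biological replicates. The labels give 3 days of culture in one field and day 5 in another, whereas in the study's methods the cells were sorted on day 3 after culture in 10 ng/ml IL-2. Cells of both groups had thus received TGF-β. What the replicates shared (mice, cultures, days) is not given, so p-values measure the spread between these libraries.

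Neuropilins are transmembrane receptors with short cytoplasmic tails, which work with partners. With plexins they bind class 3 semaphorins, and with VEGF receptor kinases they bind VEGF. Plexins carry a GTPase-activating domain that acts on small GTPases of the Ras and Rap type, and semaphorins, first known from axon guidance, signal through them. In regulatory T cells, Nrp-1 is known as a receptor for Sema4a, a signal that acts on Akt and favours the stability of the lineage.

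Approximate depth, read from the step size of FPKM in low genes, was 18.8 to 22.8 in Nrp-1+ iTreg and 15.4 to 23.4 in Nrp-1- iTreg, in units of 1e6 fragments per library. Short RNA genes made up between 1.77% and 43.9% of all FPKM in single libraries. The labelled cell type was checked against 11 CD4+ T cell and Treg markers, of which 10 were listed and tested. Cd4 was 315.0 FPKM in Nrp-1+ iTreg and 325.1 in Nrp-1- iTreg and did not pass the test. Of the 10, 4 were higher in Nrp-1+ iTreg, namely Foxp3 (115.8 and 108.8 FPKM), Il2ra (265.5 and 227.9), Ikzf2, which encodes Helios (2.56 and 1.86), and Ikzf4 (13.1 and 11.4), with adjusted p of 0.0245, 0.000108, 0.000853 and 0.00189 (limma). A further 3 were lower, Ctla4 (143.6 and 160.0 FPKM), Cd3d (436.8 and 496.4) and Cd3g (443.7 and 478.9), with adjusted p of 0.000938, 0.00370 and 0.0375 (limma). Under 5 scalings of the libraries (as deposited, size factors, quantile normalization, rescaling without short RNA genes, and correction for GC content and length), Foxp3 and Cd3g were called in 3, with adjusted p up to 0.111 and 0.696 (limma), Cd3d and Ctla4 in 4, and Il2ra, Ikzf2 and Ikzf4 in all 5. Markers beyond Cd4, Foxp3, Il2ra and Ikzf2 are named after their values were seen. Over all genes tested, 20.9% were called higher and 20.0% lower. Of 19 markers of other cells, 16 stayed under the filter and summed to at most 2.41 FPKM in Nrp-1+ iTreg and 3.20 in Nrp-1- iTreg. Of the 3 tested, Pecam1 (59.0 and 62.4) was not called, Cd8b1 (7.86 and 10.0, with Cd8a at no more than 0.111) was lower and Itgam (6.70 and 5.56) was higher in Nrp-1+ iTreg, with adjusted p of 0.0119 and 0.00136 (limma). The part of these markers in the members' differences was not tested. The B cell marker Ms4a1 and the endothelial marker Tek were at 0 in all 8 libraries.

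The sequence just upstream of a listed transcription start is shown for the genes that passed the test and had an entry in the RefSeq promoter table (GRCm38.p6, the build named in the submitters' processing notes being GRCm38). Each window holds the 250 bases before the most upstream start in that table, 5′ to 3′ on the strand of the gene. For Nrp1, Plxnb2 and Sema7a the RefSeq gene record, whose coordinates are given with the values, begins further upstream, so these 3 windows lie inside the record. Capitals mark GC boxes, GGGCGG or its reverse complement CCGCCC. The windows are chr8:128358823-128359072 (plus strand) for Nrp1, chr15:89180789-89181038 (minus) for Plxnb2, chr3:88461183-88461432 (minus) for Sema4a, chr9:57939862-57940111 (plus) for Sema7a and chr17:46032378-46032627 (minus) for Vegfa. No exon of the GENCODE M21 annotation lies in these 5 windows.
Nrp1: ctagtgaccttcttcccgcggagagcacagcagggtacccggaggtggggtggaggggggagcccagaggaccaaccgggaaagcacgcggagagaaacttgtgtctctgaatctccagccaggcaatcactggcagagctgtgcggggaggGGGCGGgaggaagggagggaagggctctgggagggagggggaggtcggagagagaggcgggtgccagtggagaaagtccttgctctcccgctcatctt
Plxnb2: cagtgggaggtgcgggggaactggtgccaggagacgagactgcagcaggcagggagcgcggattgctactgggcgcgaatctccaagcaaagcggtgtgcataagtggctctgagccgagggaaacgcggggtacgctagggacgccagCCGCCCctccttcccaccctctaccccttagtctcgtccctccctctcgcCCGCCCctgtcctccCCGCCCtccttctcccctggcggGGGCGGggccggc
Sema4a: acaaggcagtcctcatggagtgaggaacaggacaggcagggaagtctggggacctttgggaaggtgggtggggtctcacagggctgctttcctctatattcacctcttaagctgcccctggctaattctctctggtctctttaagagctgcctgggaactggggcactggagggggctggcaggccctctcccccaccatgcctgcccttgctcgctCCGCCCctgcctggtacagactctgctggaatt
Sema7a: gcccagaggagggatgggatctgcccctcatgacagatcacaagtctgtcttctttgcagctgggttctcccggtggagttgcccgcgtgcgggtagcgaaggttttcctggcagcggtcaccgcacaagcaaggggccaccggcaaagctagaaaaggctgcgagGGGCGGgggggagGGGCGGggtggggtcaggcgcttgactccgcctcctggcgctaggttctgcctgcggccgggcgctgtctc
Vegfa: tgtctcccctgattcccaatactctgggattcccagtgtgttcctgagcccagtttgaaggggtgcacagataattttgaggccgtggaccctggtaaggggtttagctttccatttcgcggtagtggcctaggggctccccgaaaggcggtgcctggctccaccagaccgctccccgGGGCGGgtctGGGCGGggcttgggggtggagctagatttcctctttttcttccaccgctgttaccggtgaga

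A GC box, in either orientation, was present in each of the 5 windows, the 4 that precede genes higher in Nrp-1+ iTreg and the 1 that precedes Vegfa. Of the 9 genes with an entry (Plxna1 has none), 8 had at least 1, and 32.7% of all 32851 windows of this length had one. The Sema4d window held none, but it lies inside the RefSeq gene record, and 119 of its bases are in Sema4d exons. Its letters and GC content therefore do not describe sequence upstream of that record. The Plxnd1 window also lies inside its gene record, and 32 bases of the Nrp2 window are in Nrp2 exons. The GC content of the 9 windows ran from 52.0% (Sema4d) to 76.4% (Vegfb), against a median of 52.4% over all windows. The core letters of the hypoxia response element, ACGTG or CACGT, were in none of the 9 windows and in 16.6% of all windows. The letters CAGACA or TGTCTG, bound by SMAD proteins, were in the Sema4d and in no other of the 9 windows, against 17.1% of all windows. These matches describe letters in a short window and do not show binding.

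Nrp1 encodes the sorted protein, so its level checks the labels and is no finding. Nrp1 (NCBI gene 18186, chr8:128358591-128505476, GRCm38) was 22.0, 21.8, 21.6 and 20.4 FPKM in replicates 1 to 4 of Nrp-1+ iTreg. It was 4.95, 4.70, 5.31 and 4.83 FPKM in replicates 1 to 4 of Nrp-1- iTreg. Every library matched its label, and the transcript was present, at a lower level, in all 4 libraries of cells sorted as Nrp-1-. The means, 21.5 ± 0.709 and 4.95 ± 0.262 (SD, n = 4), stood in a ratio of 4.34. On the log2(FPKM + 1) scale, which understates changes of low genes, the difference was 1.92 (SE 0.04), the fifth largest of the 4282 genes called. In bulk RNA, fewer cells that express a gene and less of its RNA per cell cannot be told apart. FPKM per gene do not separate the membrane-bound and the soluble form of neuropilin-1.

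Nrp2, the other neuropilin, binds a different set of class 3 semaphorins and the lymphatic factor Vegfc. It was close to the limit of detection. In Nrp-1+ iTreg, Nrp2 (NCBI gene 18187, chr1:62703317-62818692) was 0.0226, 0.0216, 0.0356 and 0.0227 FPKM. In Nrp-1- iTreg it was 0.0122, 0.0216, 0.0186 and 0.0392 FPKM. These values correspond to about 1.92 to 5.46 fragments per library, and the groups overlapped throughout. Nrp2 was under the filter, and a fit of all genes above 0 gave a log2 difference of 0.0039 (95% interval -0.02 to 0.03, adjusted p = 0.839, limma). A difference was not detectable at this depth.

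**Figure D1:**
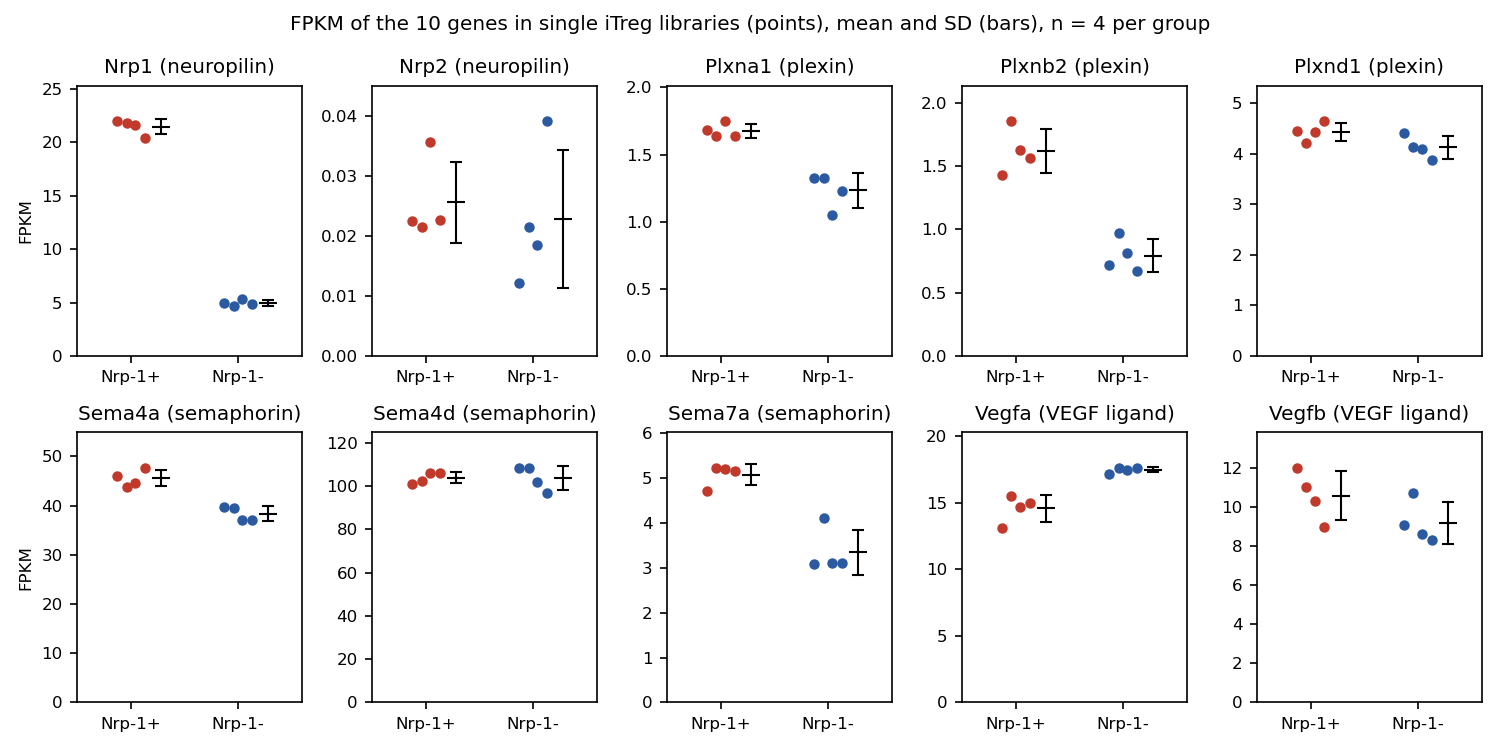
FPKM (vertical axis, from 0) of each of the 10 genes in the 4 Nrp-1+ iTreg and the 4 Nrp-1- iTreg libraries (points), with mean and SD (bars). The points of the groups do not overlap for Nrp1, Plxna1, Plxnb2, Sema4a, Sema7a and Vegfa, and Vegfa is the one of these that is lower in Nrp-1+ iTreg.

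Plexins, the signal-transducing receptors, were low in iTreg. Plxnb2 is a receptor of class 4 semaphorins such as Sema4c and Sema4d. Plxnb2 (NCBI gene 140570, chr15:89155546-89182018) was 1.43, 1.85, 1.63 and 1.57 FPKM in Nrp-1+ iTreg. It was 0.722, 0.971, 0.812 and 0.668 FPKM in Nrp-1- iTreg. The lowest Nrp-1+ iTreg library lay well above the highest Nrp-1- iTreg library. The mean was 1.62 ± 0.176 against 0.793 ± 0.133 FPKM (SD, n = 4), a ratio of 2.04. The log2 difference was 0.55 (95% interval 0.36 to 0.74) with an adjusted p of 0.00114 (limma), and it was 1.03 when taken from the ratio of the mean FPKM. Plxnb2 had about 78.4 to 240.6 fragments per library and passed the filter through its level in Nrp-1+ iTreg, since its mean in Nrp-1- iTreg was under 1.

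Plxna1 pairs with Nrp-1 in the receptor for class 3 semaphorins. In Nrp-1+ iTreg, Plxna1 (NCBI gene 18844, chr6:89316313-89362613) was 1.69, 1.64, 1.75 and 1.64 FPKM. In Nrp-1- iTreg it was 1.33, 1.33, 1.05 and 1.23 FPKM. The groups did not overlap, and replicate 3 was the lowest of the Nrp-1- iTreg libraries. The mean rose by 36.1%, from 1.23 ± 0.131 to 1.68 ± 0.0515 FPKM (SD, n = 4), with a log2 difference of 0.26 (95% interval 0.12 to 0.41, adjusted p = 0.0118, limma). The call was lost under 3 of 21 alternatives, with adjusted p up to 0.0734 (limma), under quantile normalization (0.21). An antisense gene in GENCODE M21, Gm26811, shares 970 of the 9054 exon bases of Plxna1, and since the study and the labels name different library kits, it is not settled whether strand was used in counting.

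Plxnd1 is the receptor of Sema3e and has also been described as a receptor of Sema4a. It was the most abundant of the 3 plexins. Plxnd1 (NCBI gene 67784, chr6:115954811-115995339) was 4.45, 4.22, 4.43 and 4.65 FPKM in Nrp-1+ iTreg and 4.42, 4.13, 4.09 and 3.88 FPKM in Nrp-1- iTreg. The highest Nrp-1- iTreg library, replicate 1, lay within the range of the other group. The mean was 4.44 ± 0.174 against 4.13 ± 0.223 FPKM (SD, n = 4), and the log2 difference of 0.08 (95% interval -0.02 to 0.19) did not pass the test (adjusted p = 0.171, limma). By the exact permutation test (two-sided, mean FPKM), p was 0.0571.

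Sema4d and Sema4a were the most abundant of these transcripts, and Sema7a was much lower. Sema4d, also known as CD100, is a T cell surface protein that is cleaved to a soluble form and binds Plxnb1, Plxnb2 and Cd72. Sema4d (NCBI gene 20354, chr13:51685529-51793678) was 101.0, 102.5, 105.9 and 106.2 FPKM in Nrp-1+ iTreg. It was 108.3, 108.5, 101.6 and 97.0 FPKM in Nrp-1- iTreg, so the range of Nrp-1+ iTreg lay inside that of Nrp-1- iTreg. The means were 103.9 ± 2.57 and 103.8 ± 5.57 FPKM (SD, n = 4). The log2 difference was 0.0025 with a 95% interval of -0.09 to 0.09, its sign depended on the scaling (-0.03 to 0.06), and the exact two-sided permutation test gave p = 1.

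Sema4a, a membrane semaphorin that acts as a ligand of Nrp-1 on regulatory T cells, was higher in Nrp-1+ iTreg. Sema4a (NCBI gene 20351, chr3:88435959-88461182) was 46.0, 43.9, 44.7 and 47.7 FPKM in Nrp-1+ iTreg. In Nrp-1- iTreg, it was 39.7, 39.6, 37.2 and 37.0 FPKM. All 4 values of Nrp-1+ iTreg exceeded all 4 of Nrp-1- iTreg, and the spread within a group was small. The mean rose by 18.7%, from 38.4 ± 1.50 to 45.6 ± 1.67 FPKM (SD, n = 4). The log2 difference was 0.24 (95% interval 0.16 to 0.32) with an adjusted p of 0.00105 (limma). With about 1832 to 3261 fragments per library, it was among the better measured of the 10 genes.

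Sema7a is attached to the membrane by a lipid anchor and binds Plxnc1 and the integrin chains Itga1 and Itgb1. Sema7a (NCBI gene 20361, chr9:57939596-57962865) was 4.71, 5.23, 5.20 and 5.16 FPKM in Nrp-1+ iTreg. In Nrp-1- iTreg it was 3.08, 4.10, 3.09 and 3.10 FPKM. The groups did not overlap, although replicate 1 of Nrp-1+ iTreg was below its group and replicate 2 of Nrp-1- iTreg above its group. The mean rose by 51.7%, from 3.35 ± 0.505 to 5.07 ± 0.243 FPKM (SD, n = 4). The log2 difference was 0.49 (95% interval 0.31 to 0.67, adjusted p = 0.00166, limma), and it was 0.57 without replicate 2 of Nrp-1- iTreg.

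Of the 9 members tested, Vegfa was the one that was lower in Nrp-1+ iTreg. This main angiogenic factor of the family binds both Nrp-1 and the VEGF receptor kinases. Vegfa (NCBI gene 22339, chr17:46016993-46032377) was 13.1, 15.5, 14.7 and 15.0 FPKM in Nrp-1+ iTreg and 17.2, 17.6, 17.5 and 17.6 FPKM in Nrp-1- iTreg. Nrp-1- iTreg were tightly grouped above all Nrp-1+ iTreg, of which replicate 1 was the lowest. The mean was 14.6 ± 1.02 against 17.5 ± 0.196 FPKM (SD, n = 4), and the log2 difference was -0.25 (95% interval -0.35 to -0.14, adjusted p = 0.00328, limma). The sign held under every scaling tried, from -0.28 to -0.19.

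Vegfb, a ligand of Flt1 and of Nrp-1, did not pass the test. Vegfb (NCBI gene 22340, chr19:6982472-6987651) was 12.0, 11.0, 10.3 and 8.97 FPKM in Nrp-1+ iTreg. In Nrp-1- iTreg it was 9.07, 10.7, 8.60 and 8.29 FPKM. The groups overlapped, since replicate 4 of Nrp-1+ iTreg lay below 2 of the Nrp-1- iTreg libraries. The mean was 10.6 ± 1.27 against 9.17 ± 1.08 FPKM (SD, n = 4), and the log2 difference was 0.19 (95% interval -0.04 to 0.41, adjusted p = 0.159, limma). It passed after rescaling of the libraries without short RNA genes (0.24, adjusted p = 0.0247, limma). Whether Vegfa and Vegfb differed in their change was not tested.

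For each of the 6 members called, including Nrp1, the exact permutation test of mean FPKM (two-sided) gave an unadjusted p of 0.0286, the smallest that 4 libraries against 4 allow. Groups that did not overlap were also common among all genes tested (39.5%, with 20.2% higher and 19.3% lower in Nrp-1+ iTreg). Among the members, 5 of 9 were called higher, but the outcome of Nrp1 was fixed by the sort and Plxnb2 passed the filter through Nrp-1+ iTreg. Without these genes, 3 of 7 were higher and 1 was lower, with a median log2 difference of 0.19, beside -0.02 over all genes, and so few genes are a description. The balance of calls over all genes depended on scaling, since 51.1% of the calls were higher in Nrp-1+ iTreg here, 73.4% after rescaling without short RNA genes and 40.1% after correction for GC content and length. Sorted by size among the 4282 genes called, Plxnb2 ranked 498, Sema7a 621, Plxna1 1649, Vegfa 1818 and Sema4a 1888, and the median size of a called difference was 0.22.

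**Figure D2:**
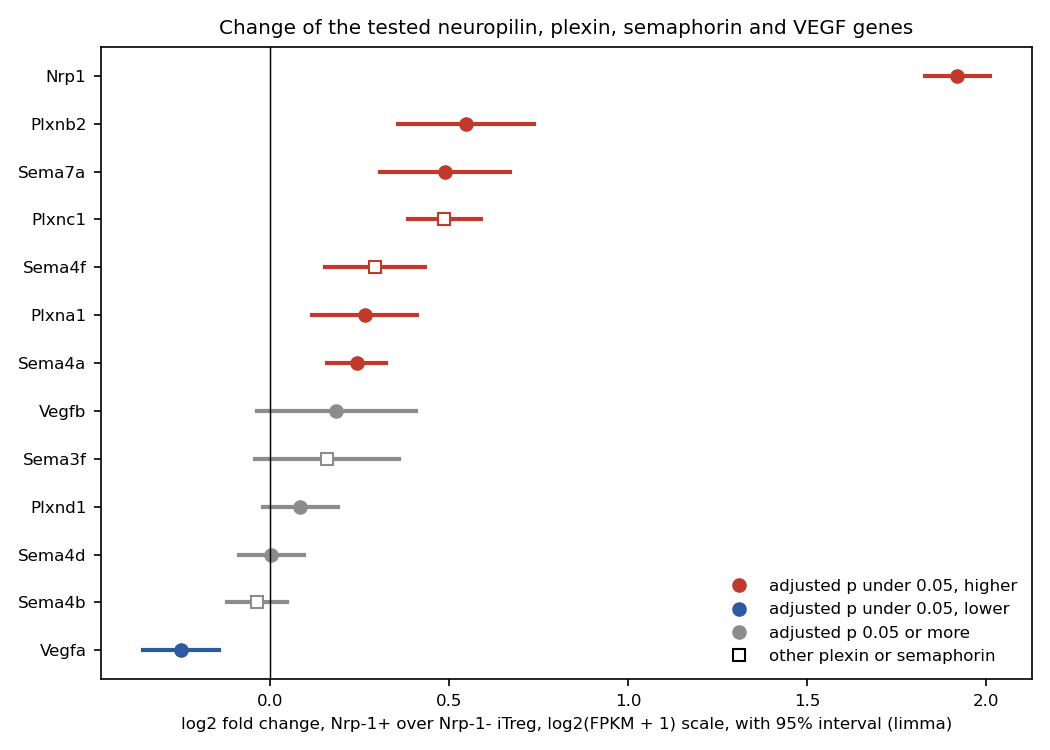
Log2 difference between Nrp-1+ and Nrp-1- iTreg on the log2(FPKM + 1) scale (horizontal axis) with 95% interval (lines) for the 9 tested members (circles) and 4 other tested plexins and semaphorins (squares). Nrp1, the gene of the sorted protein, lies at 1.92, and Plxnb2, Sema7a and Plxnc1 lie near 0.5, whereas Vegfa alone lies below 0 with an interval that leaves 0 out.

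In levels per length (FPKM), Sema4d led in both groups, followed by Sema4a. In Nrp-1+ iTreg, Nrp1, Vegfa, Vegfb, Sema7a and Plxnd1 came next, then Plxna1 and Plxnb2, whose ranges overlapped, and Nrp2 was last. In Nrp-1- iTreg, Vegfa and Vegfb preceded Nrp1, Plxnd1 and Sema7a overlapped, and Plxna1, Plxnb2 and Nrp2 followed. Nrp1, the gene of the sorted protein, was thus at the fifth place in Nrp-1- iTreg and at the third in Nrp-1+ iTreg. All other neighbours in either order had ranges that did not overlap.

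Since FPKM ratios within a library do not depend on a factor that scales the whole library, ratios between members were taken in each library. Sums of FPKM do depend on it and are given as levels. The sum of the 3 plexins was 7.57 to 7.85 FPKM in Nrp-1+ iTreg and 5.77 to 6.47 in Nrp-1- iTreg, and it includes Plxnb2, which passed the filter through Nrp-1+ iTreg. Nrp1 was 2.60 to 2.90 times this sum in Nrp-1+ iTreg and 0.730 to 0.891 times in Nrp-1- iTreg, a difference that the sort on Nrp-1 fixed. Plxnd1 was 2.28 to 3.11 times Plxnb2 in Nrp-1+ iTreg and 4.25 to 6.12 times in Nrp-1- iTreg, without overlap, which rests on Plxnb2 as well.

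Among the semaphorins, Sema4a was 0.422 to 0.455 of Sema4d in Nrp-1+ iTreg and 0.365 to 0.382 in Nrp-1- iTreg. Sema7a was 0.0467 to 0.0510 of Sema4d in Nrp-1+ iTreg and 0.0285 to 0.0378 in Nrp-1- iTreg. Neither ratio overlapped between the groups, and both were higher in Nrp-1+ iTreg. The sum of the 3 semaphorins, led by Sema4d, overlapped (151.6 to 159.1 against 137.1 to 152.2 FPKM). The ratio of Vegfa to Vegfb was 1.10 to 1.67 in Nrp-1+ iTreg and 1.64 to 2.13 in Nrp-1- iTreg, and overlapped by a narrow margin. The sum of both ligands overlapped as well (23.9 to 26.5 against 25.9 to 28.3 FPKM).

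**Figure D3:**
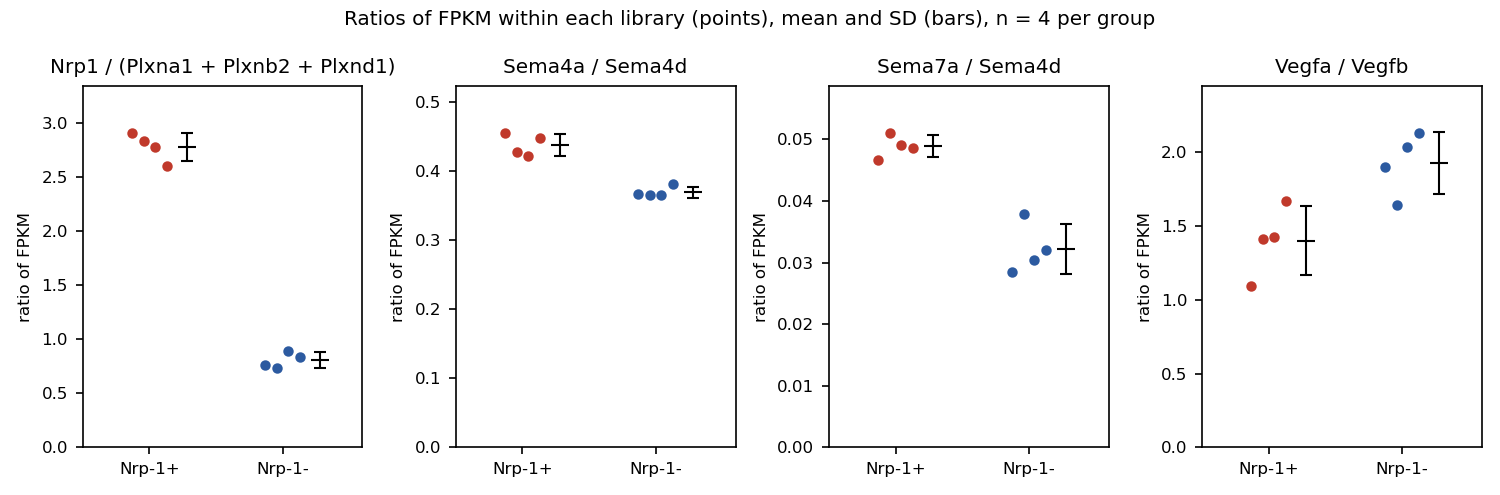
Ratios of FPKM within each library (vertical axes, from 0), with points for the 4 libraries of each group and bars for mean and SD. Nrp1 over the 3 plexins (fixed by the sort), Sema4a over Sema4d and Sema7a over Sema4d are higher in all Nrp-1+ iTreg libraries than in any Nrp-1- iTreg library, and Vegfa over Vegfb is lower on average with ranges that meet (1.10 to 1.67 against 1.64 to 2.13).

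To find the genes whose pattern was most like that of Nrp1, each gene's log2(FPKM + 1) was centred on its own mean and the root mean square difference from Nrp1 was taken over the 8 libraries, for 10199 genes without short RNA genes. The nearest was H1fx, a linker histone, at 0.35, against a spread of 0.96 of Nrp1 around its own mean. H1fx had a mean of 7.55 FPKM in Nrp-1+ iTreg and 2.53 in Nrp-1- iTreg. Also among the 5 nearest were 1700007K13Rik (0.38, 2.95 and 0.719 FPKM), Stxbp6, a SNARE-binding protein (0.42, 3.97 and 1.32 FPKM), and Tk1, a thymidine kinase of S phase (0.43, 60.2 and 28.4 FPKM). Of these, 1700007K13Rik passed the filter through its level in Nrp-1+ iTreg, since its mean in Nrp-1- iTreg was under 1. None of the other members came near. Plxnb2 ranked 486 at 0.69, Sema7a 606 at 0.73, Plxna1 1241 at 0.83 and Sema4a 1361 at 0.84, whereas Vegfa ranked 9592 at 1.09. This likeness rests on the size of the difference between the groups, which the sort on Nrp-1 made large for Nrp1 itself.

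Cell cycle genes moved with the groups. All 12 genes of a cell cycle list were higher in Nrp-1+ iTreg, with a median log2 difference of 0.92, and their summed level was 1700 to 1750 FPKM in Nrp-1+ iTreg and 935.4 to 949.3 in Nrp-1- iTreg. Mki67, which encodes the proliferation antigen Ki-67, was 82.3 FPKM in Nrp-1+ iTreg and 46.3 in Nrp-1- iTreg. Among all genes tested, 20.9% were called higher. The part of cell cycle genes in the differences of the members was not tested.

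The 29 other plexins, semaphorins, VEGF ligands and VEGF receptor kinases show which partners of the members were expressed. Only 4 passed the filter, 2 were higher in Nrp-1+ iTreg, and none was lower (20.9% and 20.0% over all genes tested). Plxnc1, the plexin receptor of Sema7a, was 5.02, 4.97, 4.87 and 4.92 FPKM in Nrp-1+ iTreg and 3.21, 3.52, 3.02 and 3.23 FPKM in Nrp-1- iTreg. The groups were far apart, and the log2 difference was 0.49 with an adjusted p of 6.48e-05 (limma), beside 0.49 for its ligand Sema7a. In Nrp-1+ iTreg the mean level per length of Plxnc1 (4.94 FPKM) was above that of Plxnd1 (4.44), and in Nrp-1- iTreg below it (3.25 and 4.13), with no overlap of the 2 genes in either group.

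Sema4f, a membrane semaphorin, was 8.74 ± 0.818 FPKM in Nrp-1+ iTreg and 6.93 ± 0.310 in Nrp-1- iTreg (SD, n = 4), without overlap (log2 difference 0.29, adjusted p = 0.00565, limma). Sema4b, also of class 4, was 13.5 ± 0.422 and 13.9 ± 0.598 FPKM and overlapped (adjusted p = 0.447, limma), and the sign of its difference depended on the scaling. Sema3f, a secreted ligand that prefers Nrp-2, was 1.16 ± 0.0401 and 0.939 ± 0.202 FPKM and overlapped (adjusted p = 0.183, limma). It passed the filter through its level in Nrp-1+ iTreg. The 25 genes under the filter reached at most 0.941 FPKM in any library, and 17 of them were under 0.1 in all 8. The secreted Nrp-1 ligand Sema3a was among these. The 3 VEGF receptor kinases Flt1, Kdr and Flt4 reached at most 0.0578 FPKM, so that the kinase partners of Vegfa were near the limit of detection in both groups. Plxna4 and Sema6a were at 0 in all 8 libraries.

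Of the 14 other receptors and partners, 7 were tested, 3 were higher in Nrp-1+ iTreg and 2 were lower (20.9% and 20.0% over all genes tested). Itgb1, the integrin chain that with Itga1 forms a receptor of Sema7a, was 38.3, 38.1, 38.8 and 37.8 FPKM in Nrp-1+ iTreg and 23.2, 22.7, 22.7 and 22.2 FPKM in Nrp-1- iTreg. The mean rose by 68.5%, and the spread within either group was small beside this difference (log2 difference 0.73, adjusted p = 2.33e-07, limma). Its partner Itga1 was at 0.0252 FPKM or less in every library. Itgav, also listed as an integrin chain of Sema7a receptors and named after its values were seen, was 8.75 and 8.71 FPKM. It did not pass the test (log2 difference 0.006, adjusted p = 0.891, limma). Cd72, a receptor of Sema4d known from B cells, was 21.4 ± 0.918 and 20.3 ± 0.528 FPKM (SD, n = 4) and did not pass the test (log2 difference 0.08, adjusted p = 0.114, limma).

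Neuropilin-1 also binds TGF-β, the cytokine that induced these cells, and all 3 TGF-β receptors of the list were tested. They are named here after their values were seen. Tgfbr1 (18.7 and 15.4 FPKM in Nrp-1+ and Nrp-1- iTreg) and Tgfbr3 (8.81 and 6.94) were higher in Nrp-1+ iTreg, with log2 differences of 0.26 and 0.30. Tgfbr2 (85.4 and 92.6 FPKM) was lower, by a log2 difference of -0.11, a call lost after rescaling without short RNA genes (-0.05, adjusted p = 0.269, limma). The ranges of the groups did not overlap for any of the 3 receptors.

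Of 32 genes that act inside the cell downstream of plexins and neuropilins, 26 were tested. In Nrp-1+ iTreg 12 were higher and 3 were lower (20.9% and 20.0% over all genes tested). Gipc1, the adaptor that binds the cytoplasmic tail of Nrp-1, was 39.9 ± 0.563 FPKM in Nrp-1+ iTreg and 32.0 ± 1.41 in Nrp-1- iTreg (SD, n = 4), with a log2 difference of 0.31 (adjusted p = 0.000133, limma). Fes, a tyrosine kinase that binds plexin A1, was 14.7 ± 0.839 and 10.0 ± 0.422 FPKM (log2 difference 0.51, adjusted p = 6.58e-05, limma). Both were without overlap between the groups, and both held under each scaling. Akt1, a kinase of growth and survival signals, also rose, with a log2 difference of 0.18 (adjusted p = 0.000561, limma).

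The 3 called decreases were small. Rap1b, a small GTPase on which plexins act, was 373.3 ± 13.7 and 409.5 ± 6.67 FPKM (log2 difference -0.13). Limk2, a kinase of the actin regulator cofilin, was 21.2 ± 0.387 and 23.3 ± 0.477 FPKM (-0.13). Fyn, a Src-family kinase of semaphorin signalling, was 118.1 ± 2.94 and 128.7 ± 0.331 FPKM (-0.12). Each pair was without overlap, with adjusted p of 0.00799, 0.00319 and 0.00245 (limma), and each call was lost after rescaling without short RNA genes, with the sign kept. Rap1b was called under 3 of the 5 scalings, with adjusted p up to 0.262 (limma).

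Over these 75 genes, 37 were tested, 17 were higher in Nrp-1+ iTreg (45.9%, against 20.9% of all genes) and 5 were lower (13.5%, against 20.0%), with a median log2 difference of 0.10. The lists were chosen with results of these data known, so these shares are a description. After rescaling without short RNA genes, 21 were higher and 0 were lower, whereas 73.4% of the calls over all genes were then higher.

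**Figure D4:**
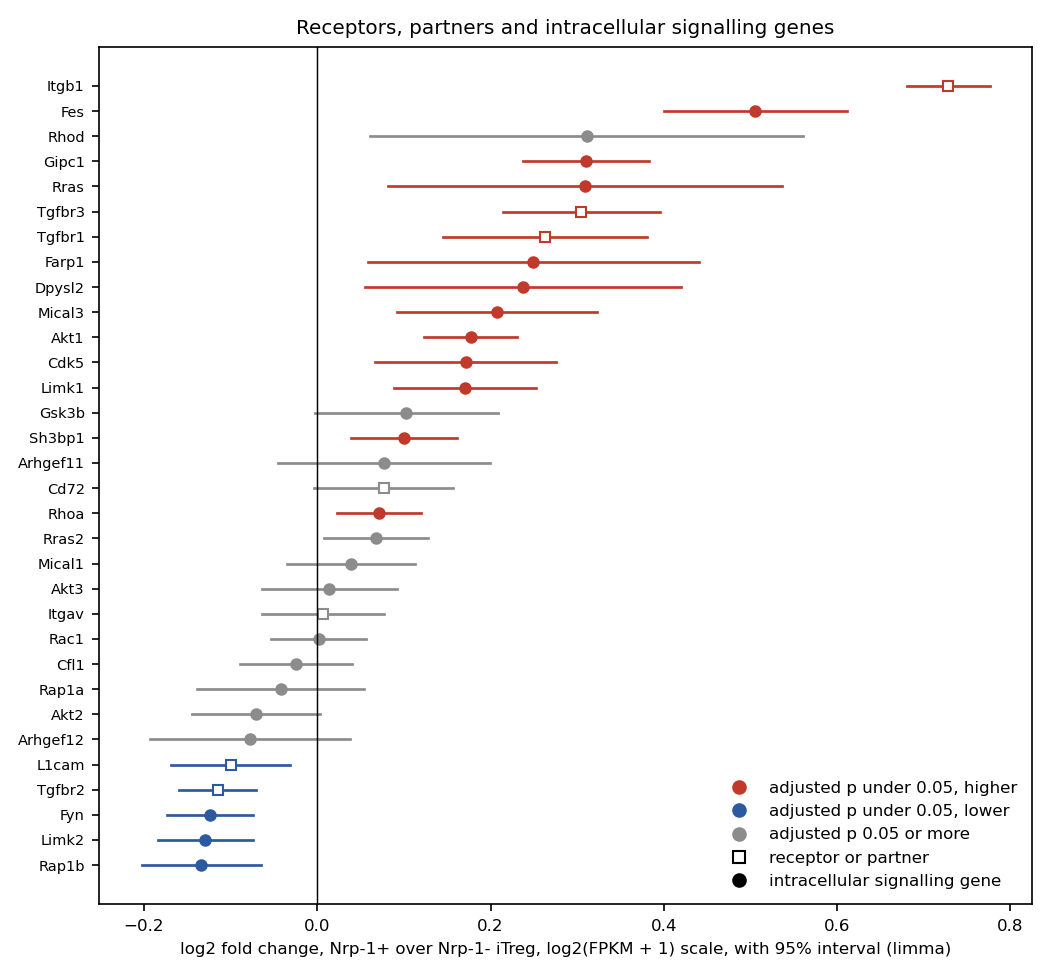
Log2 difference between Nrp-1+ and Nrp-1- iTreg on the log2(FPKM + 1) scale (horizontal axis) with 95% interval (lines) for the 7 tested receptors and partners (squares) and 25 of the 26 tested intracellular genes (circles). Itgb1 lies at 0.73 and Fes at 0.51, and the 5 called decreases lie between -0.13 and -0.10.

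The members differed in how far their values depended on the processing. Over 21 or 22 alternatives for each tested gene, Plxnb2 ranged from 0.51 to 1.03, Sema7a from 0.46 to 0.60, Sema4a from 0.21 to 0.30 and Vegfa from -0.28 to -0.19, and each kept its direction and its call. Among the alternatives, the exact test was read by its unadjusted p, and the ratio of mean FPKM carries the adjusted p of the reported fit. Plxna1 ranged from 0.21 to 0.44 and lost its call under 3 alternatives. The upper values of Plxnb2 and Plxna1, the least abundant tested members, came from a smaller pseudocount or none, which compresses low values less. Plxnd1 (0.05 to 0.13) was called under none of the alternatives and Vegfb (0.13 to 0.25) under 2.

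**Figure D5:**
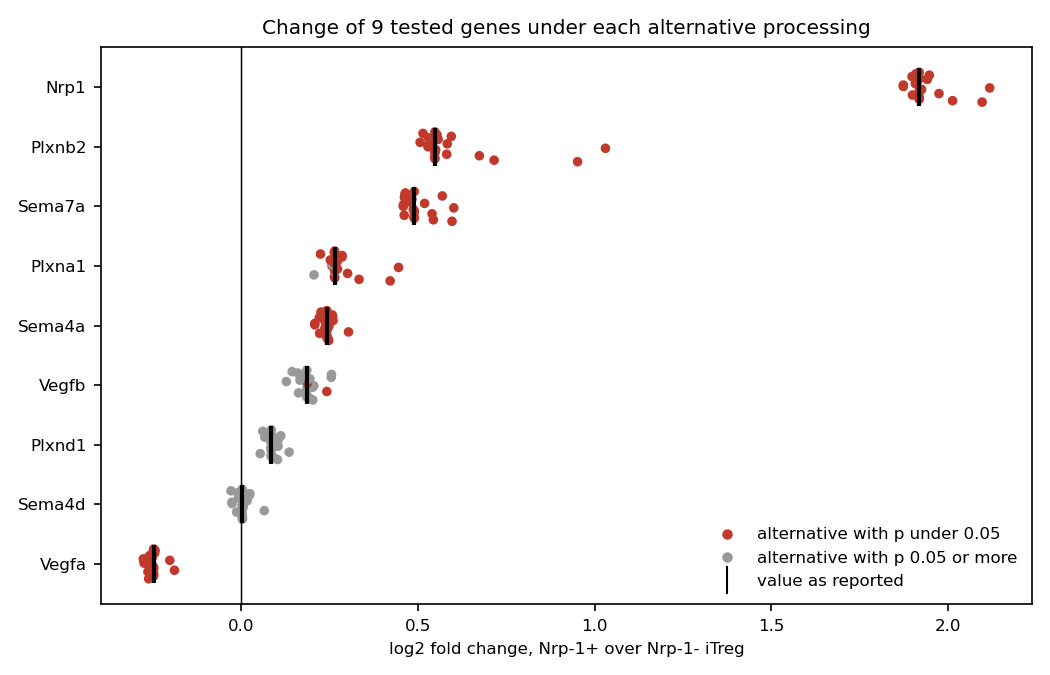
Log2 difference between Nrp-1+ and Nrp-1- iTreg (horizontal axis) of the 9 tested members under each alternative processing (points) and as reported (black line). Points are red where the adjusted p (limma), or the unadjusted p of the exact test, was under 0.05. Nrp1, Plxnb2, Sema7a, Sema4a and Vegfa stay on their side of 0 with p under 0.05 throughout, and Sema4d scatters around 0.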

How the data were processed

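RNA was sequenced from 4 Nrp-1+ and 4 Nrp-1- iTreg samples, grouped by the sample labels. The authors used the CLC Genomics Workbench for the reads and Cufflinks for expression, and deposited FPKM, with 1 value for each gene symbol in each library. The submitters' processing notes name the build GRCm38 (mm10), and the annotation and aligner settings are not given in the sources used here. FPKM divides by length and by mapped fragments, and no scaling between libraries beyond it is stated. Median-of-ratios size factors of the deposited values were 1.001 to 1.003 in all 8 libraries, so the values were already level between libraries by this measure, and the size factor alternative changes almost nothing. The approximate depth may carry such a scaling. The kits named differ: directional, after polyA selection, in the study and another in the labels. nTreg libraries were not analysed here.

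The deposited FPKM were not changed. The 10467 of 23361 genes that averaged at least 1 FPKM were tested on log2(FPKM + 1) by limma 3.58.1 under R 4.3.3 (lmFit, then eBayes with trend), with Benjamini-Hochberg adjustment over all genes tested and calls at an adjusted p under 0.05. Genes under the filter are given from a fit of all genes above 0. Exact two-sided permutation tests of the mean FPKM (4 against 4, p not adjusted) and ratios were computed with Python 3.11.15 (numpy 2.4.6, scipy 1.17.1, pandas 2.3.3), and plots with matplotlib 3.10.9. FPKM are not counts, so no count model was used. Approximate fragments per gene come from the step size of FPKM under 0.3 and the longest GENCODE M21 transcript, and give no interval for a single gene. Tested on simulated data (10467 genes, 200 changed), the fit recovered 96% of genes changed 2-fold and 20% of those changed by 0.15 on the log2 scale, with 4 false calls. In the libraries themselves 40.9% of genes were called, a far larger share than was changed in the simulation. Its rates of recovery and of false calls therefore do not carry over to the calls given here.

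Named were the 10 genes, every tested gene of 29 related ones, the 3 largest called increases and decreases among 46 partners and signalling genes, some of these by name (Akt1, Gipc1, Itgb1, Cd72), the 5 genes nearest to Nrp1, and marker genes. The values of 2 of these genes are not reported here. Members, lists and tests were chosen with earlier results of these data known. Tried as alternatives were other pseudocounts (0.1 and 0.5), a filter at 5 FPKM or none, size factors, quantile normalization, rescaling without 778 short RNA symbols, array weights, eBayes without trend, the ratio of mean FPKM, the replicate number as a block, a GC and length correction (natural splines with 5 degrees of freedom) without and with that block, the exact test, and each library left out. Promoter sequences are from RefSeq (GRCm38.p6).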

Additional observations from a re-analysis of the deposited data

Results flagged for a closer look

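In 4 groups, 1 library lay far from the other 3, its gap to the nearest being most of the range (Dixon's criterion). Sema7a, the lipid-anchored semaphorin, was 4.71 FPKM in replicate 1 of Nrp-1+ iTreg, where the others were 5.16 to 5.23, and 4.10 FPKM in replicate 2 of Nrp-1- iTreg, where the others were 3.08 to 3.10. Both libraries narrow the difference between the groups, which was 0.52 on the log2 scale without the first and 0.57 without the second, against 0.49 with all 8. Nrp2 was 0.0356 FPKM in replicate 3 of Nrp-1+ iTreg, where the others were 0.0216 to 0.0227. Limk2 was 21.8 FPKM in replicate 4 of Nrp-1+ iTreg, where the others were 21.0 to 21.1. Among the 46 groups searched, chance alone gives about 2.3 such libraries. The cause was not tested.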

How the results depend on the processing

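Nrp1, Plxnb2, Sema4a, Sema7a and Vegfa kept their direction and their call under every alternative in which they were tested, and Plxnd1 its direction without a call. The exact test was read here by its unadjusted p. The ratio of mean FPKM carries the adjusted p of the reported fit, so it could not change a call. Plxna1 kept its direction and lost its call under quantile normalization (0.21, adjusted p = 0.0734, limma), with a replicate block (0.26, adjusted p = 0.05002, limma) and with the GC and length correction and the replicate block together (0.26, adjusted p = 0.0653, limma). Vegfb gained a call after rescaling without short RNA genes (0.24), as it did with the GC and length correction and the block (0.19). Sema4d changed sign under quantile normalization (-0.0139), under the GC and length correction with and without the block (-0.0267), and over single libraries left out (-0.0296 to 0.0238). Nrp2 changed sign under the same correction with and without the block (-0.0133) and over single libraries left out (-0.0011 to 0.0116). The count of members called higher fell from 5 to 2 with a filter at 5 FPKM, because 4 members were then not tested besides Nrp2. Over all genes, rescaling without short RNA genes left 1065 calls lower and none of the 75 related genes lower (0), and the GC and length correction with the block left 11 of the 75 higher. The causes were not tested. Same-numbered libraries did not deviate together (correlations of -0.537, -0.0201, 0.0104 and -0.500 over all genes tested, and of -0.0360, -0.0645, -0.0800 and -0.107 without short RNA genes). These correlations cannot show whether same-numbered libraries came from the same mice or cultures, which is not given. The block gave 1931 genes higher and 1675 lower, against 2189 and 2093 without it. Depth limits Nrp2, at about 1.92 to 5.46 fragments per library.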

Other observations

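Related genes under the filter are given as values, from the fit of all genes above 0 (limma), in which 25.8% of 16289 genes were called, and they are named after their values were seen. Plxnb1, the main plexin receptor of Sema4d, was 0.530 to 0.732 FPKM in Nrp-1+ iTreg and 0.381 to 0.512 in Nrp-1- iTreg (adjusted p = 0.0229, limma). Sema4c, a ligand of Plxnb2, was 0.418 to 0.612 and 0.254 to 0.334 FPKM (adjusted p = 0.00835, limma). Rnd3 differed in the other direction, with 0 to 0.0187 and 0.0301 to 0.0688 FPKM (adjusted p = 0.0181, limma). The values of the next genes did not pass the test. Rnd1, a GTPase that binds plexins, was 0.641 to 0.800 and 0.296 to 0.602 FPKM (adjusted p = 0.0660, limma). Sema5a, a transmembrane semaphorin, was 0.0151 to 0.0412 and 0 to 0.0149 FPKM (adjusted p = 0.0581, limma). Pgf, a VEGF family ligand of Flt1 and Nrp-1, was 0.113 to 0.452 and 0 to 0.113 FPKM (adjusted p = 0.0870, limma). Flt4, a receptor kinase of Vegfc, was 0 to 0.0142 and 0.0070 to 0.0578 FPKM (adjusted p = 0.0941, limma). Sema3a, the secreted ligand of Nrp-1 with Plxna1, was 0.00644 to 0.0468 FPKM in Nrp-1+ iTreg and listed at 0 in each Nrp-1- iTreg library (adjusted p = 0.278, limma).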
